A study of Mus musculus with 6 samples.

Results

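Interferon-stimulated genes and the cytosolic sensors of RNA and DNA were compared between livers of TLR3-/- and TLR3wt mice. The set was given as 41 gene names, 11 sensors or sensor adaptors and 30 effectors, and was put together from gene function with earlier results of these data known, so its counts are not those of a set picked blind. A gene was followed through a probe set that the array annotation assigns to that gene alone, which left 29 measured genes, 8 sensors and 21 effectors, out of 10347 genes measured in all. Of the other names, 7 stood at 5, the lowest value in the table, on all 6 arrays (Mb21d1, Aim2, Ifit2, Oas1b, Oas3, Mx1 and Mx2). Another 4 (Ifi204, Isg15, Ifi47 and Tgtp1) appeared only in probe sets that list several genes, and Ifi44 had no probe set under its name. These 5 enter no count or median of member signals. The promoter counts below take every one of the 41 names that has a promoter window.

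The study measured total liver RNA of untreated mice, 3 months old and bred under specific-pathogen-free conditions, on 6 oligonucleotide arrays, 3 per genotype. TLR3 sits in endosomes, where it binds double-stranded RNA and recruits the adaptor TRIF. The labels name C57Bl/6 for the TLR3wt mice and for the series, but give neither the TLR3-/- allele nor whether the groups were littermates. The series counts 3 mice per group, and each array was read as 1 mouse, which no label states outright. If some arrays share a mouse, the p-values below measure technical spread only.

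The comparison asks what the loss of TLR3 does to this gene set in a liver that received no stimulus. Type I interferon is made after a sensor has bound foreign or misplaced nucleic acid. RIG-I-like receptors bind RNA and signal through MAVS, while cGAS binds DNA and signals through STING. Secreted interferon acts through its receptor and the transcription factor complex ISGF3, which binds the interferon-stimulated response element (ISRE) and switches on antiviral effectors. Most sensors are themselves induced by interferon, and a low tonic level of signalling keeps many of these genes transcribed in resting tissue.

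Values are log2 signals with a floor of 5, with 15081 to 15226 probe sets above it on each array. The median of all tested probe sets ranged from 6.54 to 6.59 between arrays. The targeted gene gave no check of the labels, because Tlr3 was at the floor on every array. Hepatocyte markers identified the tissue. The summed linear signal of 9 such genes was 42552 to 43418 in TLR3wt and 41916 to 42685 in TLR3-/- livers. Among these genes 3 separated the groups downwards and 2 upwards, against 7.04% and 13.0% of all tested probe sets.

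Promoters of the set were examined for the ISRE core, since this element is what most of these genes are known to share. The motif searched was GAAANNGAA on either strand, which reads TTCNNTTTC when it lies on the other strand, in RefSeq windows of 300 bases (250 before and 50 after each gene's start, GRCm38.p6). At least 1 match was present in 17 of 31 windows (54.8%), belonging to 16 of the 28 members with a window, against 8.56% of all 32851 windows. The share was 50.0% of 8 sensor windows and 56.5% of 23 effector windows. It was 58.3% of 12 windows of measured members whose 2 groups of livers did not overlap and 60.0% of 10 windows of those whose groups overlapped. So few windows cannot show whether the motif goes with the difference between the genotypes. Of the 29 measured members 20 had a window, with Usp18, Zbp1 and Parp14 among those without. Matches after the start were counted too. A match is a run of letters and was not tested as a binding site.

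The stretches shown belong to the 6 measured members with an upstream match and the smallest unadjusted p, so that the element can be seen beside the values that follow. Capitals mark the matches, which may overlap, with 20 bases on each side, and all bases lie upstream of the start. They lie at chr7:104465200-104465248 for Trim30a, chr8:71537568-71537622 for Bst2, chr19:34583354-34583455 for Ifit3, chr12:26456543-26456591 for Rsad2, chr2:62646339-62646387 for Ifih1 and chr1:173942499-173942547 for Ifi203. Ifit3 is on the plus strand and the other 5 genes on the minus strand, and each is written 5′ to 3′ along its gene.
Trim30a: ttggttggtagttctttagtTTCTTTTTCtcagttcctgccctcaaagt
Bst2: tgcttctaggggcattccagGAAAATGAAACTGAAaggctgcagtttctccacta
Ifit3: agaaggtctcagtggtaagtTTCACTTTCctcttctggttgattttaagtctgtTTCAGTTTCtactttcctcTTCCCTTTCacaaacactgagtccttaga
Rsad2: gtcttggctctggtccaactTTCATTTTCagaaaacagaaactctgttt
Ifih1: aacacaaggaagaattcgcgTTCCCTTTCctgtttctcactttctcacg
Ifi203: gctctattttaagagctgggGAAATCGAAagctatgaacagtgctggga
Ifit3 carried 3 separate matches and Bst2 a pair that overlaps, while the other stretches held 1 match each. Ifih1 had a further match after its start, which is not shown.

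Most effectors had a lower mean signal in the TLR3-/- livers, without a member passing the test across all probe sets. The median log2 difference was near 0 for the 5 RNA sensors and their adaptor (-0.01). It was -0.25 for the 3 measured sensors of DNA and Z-form nucleic acid and their adaptor. That median is the value of Ifi203 alone, which was -0.14 without TLR3wt replicate 3. Zbp1 and the adaptor gene Tmem173 stood partly at the floor, so these medians cannot show a difference between the 2 kinds of sensor. Of 21 effectors, 17 had a lower mean, and in 10 all 3 TLR3-/- livers lay below all 3 TLR3wt livers. Ifit3, Xaf1, Oas1a and Ifi27l2a were at the floor in every TLR3-/- liver, so they could only come out lower. Of the 15 effectors above the floor on every array, 11 had a lower mean and 8 separated downwards. A lower mean was found in 38.6% of all tested probe sets above the floor on every array. The largest of these differences were in Rsad2, Herc6, Usp18, Cmpk2, Trim30a and Oasl2, between 1.67-fold and 1.35-fold. Of 8 sensors, 7 had a lower mean, against 41.2% of all tested probe sets, and Zbp1, Ifi203 and Ifih1 separated the groups. Ddx58 (-0.01), Eif2ak2 (-0.01) and Mavs (-0.02) were near 0 and changed sign in at least 1 of the alternative fits described below. Tmem173, above the floor in 1 TLR3wt liver only, could not come out higher. Of the 6 sensors above the floor on every array, 5 had a lower mean and 2 separated downwards. The receptor genes Ddx58 and Dhx58 and the adaptor gene Mavs were within 0.05 of the TLR3wt mean on the log2 scale. No measured member lay above the TLR3wt livers in all 3 TLR3-/- livers.

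None of the 29 members passed limma's adjusted p of 0.05, which 0.186% of the 16639 tested probe sets did, and the smallest adjusted p of a member was 0.0929 (limma, Herc6). At an unadjusted p under 0.05, 10 members were lower and 0 higher, where all tested probe sets gave 5.25% lower and 9.21% higher. The groups separated downwards in 13 of 29 members against 7.04% of all tested probe sets, and upwards in 0 against 13.0%. Of the 21 members above the floor on every array, 10 separated downwards and 0 upwards, and 8 were lower at an unadjusted p under 0.05 (limma). Among all 13809 tested probe sets above the floor on every array, 989 separated downwards and 2002 upwards, and 743 were lower at that p. The median log2 difference (TLR3-/- minus TLR3wt) was -0.11 over the members, -0.20 over the effectors and -0.05 over the sensors, against 0.03 over all tested probe sets, of which 41.2% had a lower mean. Restricted to genes above the floor on every array, the medians were -0.27 for 15 effectors and -0.02 for 6 sensors. The RNA came from whole liver, so fewer cells of a type and less RNA per cell cannot be told apart.

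**Figure D1:**
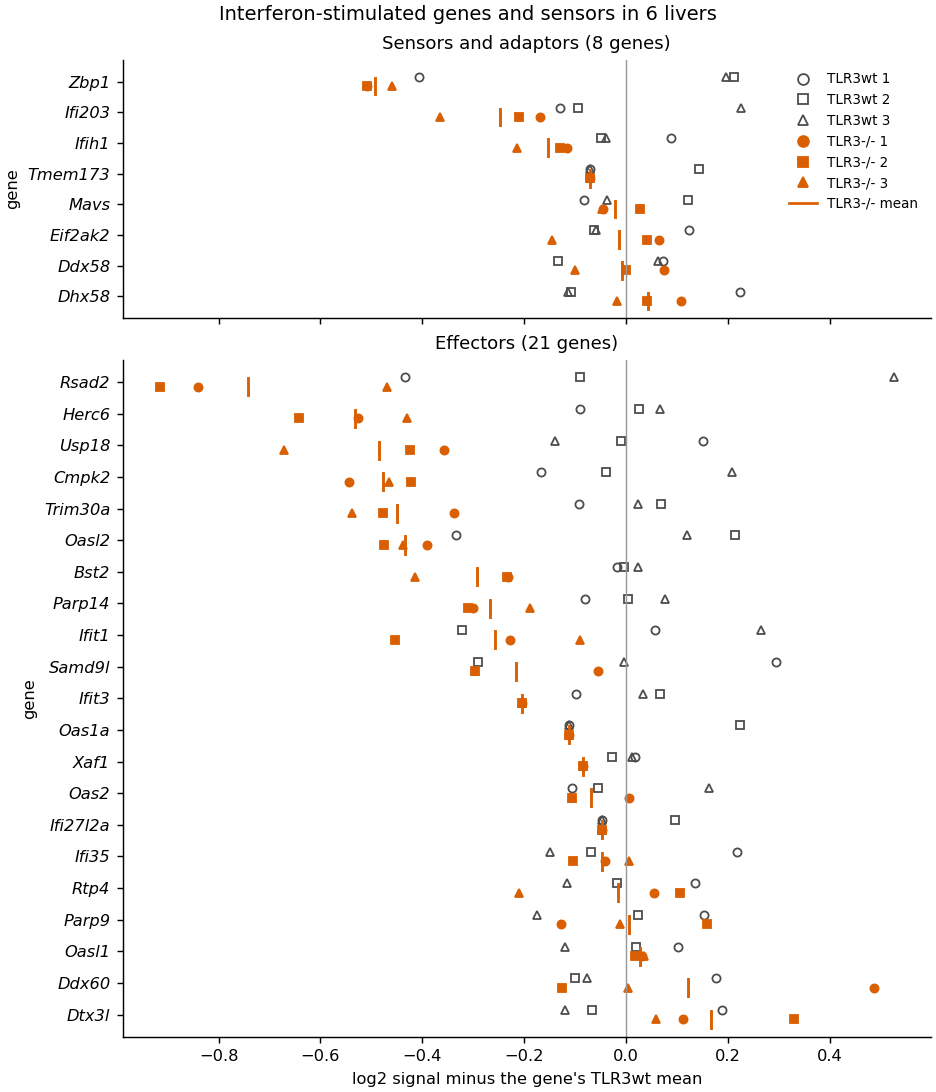
Log2 signal of each of the 29 measured members on each array, minus that gene's TLR3wt mean, for sensors and adaptors (upper panel) and effectors (lower panel). Open grey symbols are the 3 TLR3wt livers, filled orange symbols the 3 TLR3-/- livers, and the vertical orange tick is the TLR3-/- mean. In 10 effectors and 3 sensors the orange symbols all lie to the left of the grey ones, and in no gene do they all lie to the right. Genes at the floor in every TLR3-/- liver, such as Ifit3 and Xaf1, could not lie to the right.

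**Figure D2:**
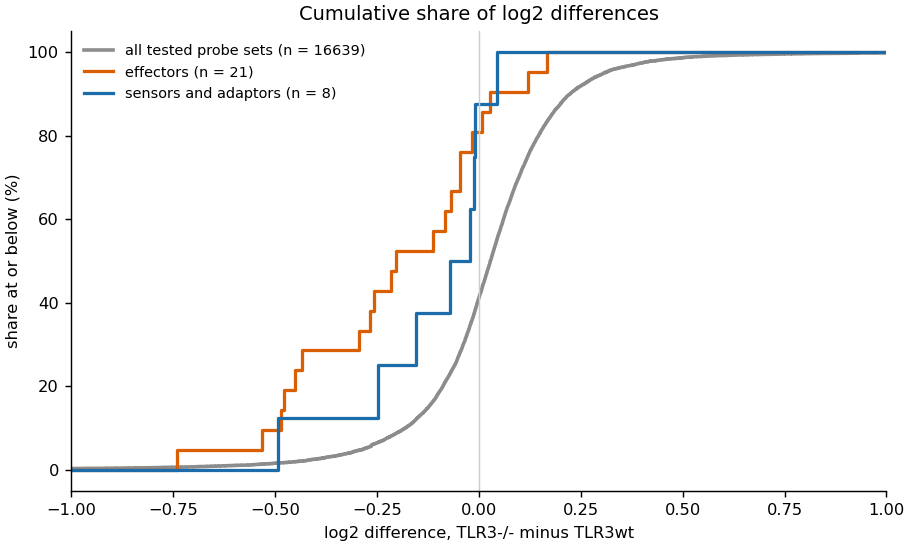
Cumulative share of genes (y axis, %) at or below each log2 difference, TLR3-/- minus TLR3wt (x axis, shown from -1 to 1), for 21 effectors, 8 sensors and adaptors and all 16639 tested probe sets. The effector curve lies left of the curve of all probe sets, with medians of -0.20 and 0.03, and the sensor curve rises steeply just below 0, with a median of -0.05.

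Among the RNA sensors, 4 of 5 genes overlapped between the groups. Ddx58, which encodes RIG-I, the receptor for short RNA with triphosphate ends, read 7.47, 7.27 and 7.46 in TLR3wt replicates 1 to 3 and 7.48, 7.40 and 7.30 in TLR3-/- replicates 1 to 3. Its log2 difference was -0.01, with a 95% interval from -0.21 to 0.19 that leaves room for a change of about 0.2 in either direction. Ifih1, which encodes MDA5, the receptor for long double-stranded RNA, read 7.47, 7.33 and 7.34 against 7.26, 7.25 and 7.16. Every TLR3-/- liver lay below every TLR3wt liver for Ifih1, by a small step (log2 difference -0.15, 95% interval -0.31 to 0.00, limma adjusted p = 0.347).

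Dhx58, encoding LGP2, the relative of these receptors that lacks a signalling domain, read 6.04, 5.71 and 5.70 against 5.93, 5.86 and 5.80. TLR3wt replicate 1 was the highest of the 6 for Dhx58 and the other TLR3wt livers the lowest (difference 0.04, interval -0.21 to 0.30). Mavs, the mitochondrial adaptor of RIG-I and MDA5, read 8.69, 8.90 and 8.74 against 8.73, 8.81 and 8.73, with a difference of -0.02 (interval -0.19 to 0.15). Eif2ak2 encodes PKR, the kinase that halts translation when it binds double-stranded RNA. It read 6.62, 6.43 and 6.44 against 6.56, 6.54 and 6.35, a difference of -0.01 (interval -0.22 to 0.20), and the groups were interleaved.

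Among the sensors of DNA and of Z-form nucleic acid, only Ifi203 was above the floor on all 6 arrays. Mb21d1 (cGAS) and Aim2, the DNA receptor of an inflammasome, were at 5 on all 6 arrays. Tmem173, which encodes STING, was above 5 only in TLR3wt replicate 2, at 5.21, so no comparison of the cGAS-STING pair could be made. Zbp1, a sensor of Z-form RNA and DNA that can trigger necroptosis, read 5.10, 5.72 and 5.70 in TLR3wt livers and 5, 5 and 5.05 in TLR3-/- livers. The groups did not overlap for Zbp1, although TLR3wt replicate 1 was close to the TLR3-/- livers, and with TLR3-/- replicates 1 and 2 at the floor the difference of -0.49 is understated (limma adjusted p = 0.281). Ifi203, a gene of the interferon-inducible p200 family, read 6.03, 6.06 and 6.38 against 5.99, 5.95 and 5.79. Its groups separated by a narrow margin, with a difference of -0.25 (limma adjusted p = 0.378), or -0.14 without TLR3wt replicate 3.

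The ISG15 system was measured through Herc6 and Usp18. ISG15 is a ubiquitin-like protein that is attached to other proteins, a step carried out in mice by the ligase HERC6 and undone by the protease USP18, which also damps signalling at the interferon receptor. Herc6 read 6.80, 6.92 and 6.96 in TLR3wt livers and 6.37, 6.25 and 6.46 in TLR3-/- livers. Usp18 read 6.40, 6.24 and 6.11 against 5.89, 5.83 and 5.58. For both genes the lowest TLR3wt liver stood clear of the highest TLR3-/- liver. Herc6 was 6.36 ± 0.11 against 6.89 ± 0.08 (SD, n = 3 each), a 1.45-fold lower mean (limma adjusted p = 0.0929), and Usp18 was 5.77 ± 0.17 against 6.25 ± 0.14, 1.40-fold lower (limma adjusted p = 0.169).

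The antiviral restriction factors held the largest difference of the set. Rsad2 encodes viperin, which makes a chain-terminating nucleotide from CTP, and Cmpk2 encodes a mitochondrial nucleotide kinase. The 2 genes are neighbours on chromosome 12 with 0 protein-coding genes between them. Rsad2 read 5.61, 5.95 and 6.57 in TLR3wt livers and 5.20, 5.13 and 5.57 in TLR3-/- livers, so the highest TLR3-/- liver was just below the lowest TLR3wt liver. Its mean was 1.67-fold lower (5.30 ± 0.24 against 6.04 ± 0.49, SD, n = 3 each, limma adjusted p = 0.279), and its log2 difference of -0.74 was -0.48 without TLR3wt replicate 3. Cmpk2 read 5.41, 5.53 and 5.78 against 5.03, 5.15 and 5.11. It was 1.39-fold lower, with TLR3wt replicate 3 the highest liver for both neighbours (5.10 ± 0.06 against 5.57 ± 0.19, SD, n = 3 each, limma adjusted p = 0.158).

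Trim30a and Bst2 separated the groups with little spread inside each. Trim30a, a tripartite-motif gene induced by interferon, read 6.66, 6.82 and 6.78 in TLR3wt and 6.42, 6.28 and 6.22 in TLR3-/- livers. Its mean was 1.37-fold lower (limma adjusted p = 0.112). Bst2 encodes tetherin, a membrane protein that holds budding virus particles at the cell surface. It read 9.25, 9.26 and 9.29 against 9.03, 9.03 and 8.85. The 3 TLR3wt livers differed by less than 0.05 for Bst2 and the TLR3-/- mean was 1.23-fold lower (log2 difference -0.29, limma adjusted p = 0.169).

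Samd9l and Ddx60, the remaining genes of this role, overlapped between the groups. Samd9l, encoding a restriction factor of poxviruses, read 5.59, 5.01 and 5.29 against 5.24, 5 and 5. Ddx60, a helicase gene induced by viral infection, read 5.59, 5.31 and 5.33 against 5.89, 5.28 and 5.41, and TLR3-/- replicate 1 was the highest of all 6. Ddx60 and Bst2 both lie on chromosome 8, as Tlr3 does, with 28 and 94 tested genes between them and Tlr3.

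Members of the OAS family make 2′-5′-linked oligoadenylate on double-stranded RNA or resemble those enzymes. Of the 4 measured through a probe set of 1 gene, only Oasl2 separated the groups. It read 5.69, 6.24 and 6.15 in TLR3wt and 5.64, 5.55 and 5.59 in TLR3-/- livers. TLR3wt replicate 1 lay only just above the TLR3-/- livers, and the mean was 1.35-fold lower (limma adjusted p = 0.266). Its neighbour Oasl1, an inhibitor of IRF7 translation, read 6.81, 6.73 and 6.59 against 6.74, 6.73 and 6.74, a difference of 0.03 (interval -0.14 to 0.20). Oas1a was above the floor only in TLR3wt replicate 2, at 5.34, and Oas2 read 5, 5.05 and 5.27 against 5.11, 5 and 5. A probe set shared by Oas1a and Oas1g read 5.19, 5.35 and 5.41 against 5, 5 and 5 (limma adjusted p = 0.161). It belongs to no single gene and is listed with the other shared probe sets below. Oas3 and Oas1b, a gene with a truncating mutation in many laboratory strains, were at 5 on every array.

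The IFIT genes, whose products bind foreign RNA by its 5′ end, were close to the floor. Ifit3 read 5.11, 5.27 and 5.24 in TLR3wt livers and 5 in all 3 TLR3-/- livers, so it was at least 1.15-fold lower (limma adjusted p = 0.232). Ifit1 read 5.60, 5.22 and 5.80 against 5.31, 5.09 and 5.45, and the groups overlapped through TLR3wt replicate 2. Ifit2 was at 5 throughout. Of the dynamin-like Mx genes, Mx1, which is defective in most inbred mouse strains, and Mx2 were likewise at 5 on every array.

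Parp14, Dtx3l and Parp9 follow one another on chromosome 16 with 0 protein-coding genes between them. Parp14, an ADP-ribosyltransferase, read 7.19, 7.28 and 7.35 in TLR3wt and 6.97, 6.96 and 7.08 in TLR3-/- livers, 1.20-fold lower with no overlap (limma adjusted p = 0.183). DTX3L is a ubiquitin ligase that works as a complex with PARP9. Dtx3l read 7.72, 7.47 and 7.42 against 7.65, 7.86 and 7.59, a difference of 0.17 (interval -0.10 to 0.44). Parp9 read 7.46, 7.33 and 7.13 against 7.18, 7.46 and 7.29, a difference of 0.01 (interval -0.26 to 0.28) that turned to -0.04 with arrays centred on their medians. Within the TLR3wt group both partners were highest in replicate 1 and lowest in replicate 3, and within the TLR3-/- group both were highest in replicate 2.

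The other interferon-stimulated genes showed small differences. Xaf1, encoding a binding partner of the apoptosis inhibitor XIAP, read 5.10, 5.06 and 5.10 in TLR3wt livers and 5 in every TLR3-/- liver, at least 1.06-fold lower. Ifi27l2a was above the floor only in TLR3wt replicate 2, at 5.14. Rtp4, a chaperone gene for receptor transport, read 6.95, 6.80 and 6.70 against 6.87, 6.92 and 6.61 (difference -0.02, interval -0.28 to 0.25). Ifi35 read 6.95, 6.66 and 6.58 against 6.69, 6.63 and 6.74 (difference -0.05, interval -0.30 to 0.21), and the groups were mixed for both genes.

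The members were also counted in each TLR3-/- liver. Of the 29 members, 13, 16 and 16 lay below all TLR3wt livers in TLR3-/- replicates 1, 2 and 3, where 20.5%, 20.3% and 21.4% of all tested probe sets did. Above all TLR3wt livers lay 2, 2 and 0 members, against 36.3%, 34.6% and 30.2% of all tested probe sets. In these livers 6, 8 and 7 of the members stood at the floor, where a value cannot lie above any TLR3wt liver. The mean deviation of the effectors from their TLR3wt means was -0.18, -0.23 and -0.22 on the log2 scale in these livers, and 0.00, -0.02 and 0.02 in TLR3wt replicates 1 to 3. The mean over the sensors was -0.08, -0.10 and -0.18 against -0.02, 0.00 and 0.02. The 3 TLR3wt livers were thus close to each other over the set, although single genes such as Rsad2, Zbp1 and Oasl2 spread more widely among them.

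Markers of macrophages were also lower, again without passing the adjusted test. Of 14 Kupffer cell and macrophage markers, all measured, 13 were lower with no overlap between the groups, against 7.04% of all tested probe sets. The summed linear signal of the 14 markers was 2526 to 3448 in TLR3wt and 1327 to 1997 in TLR3-/- livers. Among them, Adgre1 had a log2 difference of -1.00, Clec4f -0.69 and Timd4 -0.90, and Cd163, at 0.11, was the 1 marker that did not separate. The mean deviation of the list was -0.24, 0.23 and 0.01 in TLR3wt replicates 1 to 3 and -0.70, -1.14 and -0.58 in TLR3-/- replicates 1 to 3. The part of these cells in the lower effector signals was not tested.

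Other immune cells left little signal. The neutrophil markers (6 of 6), the B cell markers (5 of 6), the T and NK cell markers (8 of 10) and the plasmacytoid dendritic cell markers (4 of 6, Siglech and Ccr9 among them) were at 5 on all arrays. Of the latter list only Cox6a2 was measured, with a difference of -0.19. Of 6 conventional dendritic cell markers 4 were at 5, Xcr1 and Flt3 among them, and Clec9a (-0.04) and Zbtb46 (-0.23) were measured. Of 8 sinusoidal endothelial markers, 5 had a lower mean, against 41.2% of all tested probe sets, and Stab2, Clec4g and Lyve1 were all measured. The summed linear signal of the 8 was 1448 to 1875 in TLR3wt and 1435 to 1720 in TLR3-/- livers. Lyve1 (-0.56) and Pecam1 (-0.24) separated the groups downwards, against 7.04% of all tested probe sets, and Stab2 (-0.05) did not separate them. The 3 with a higher mean were Clec4g (0.06), Stab1 (0.05) and Kdr (0.01), all with overlapping groups.

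**Figure D3:**
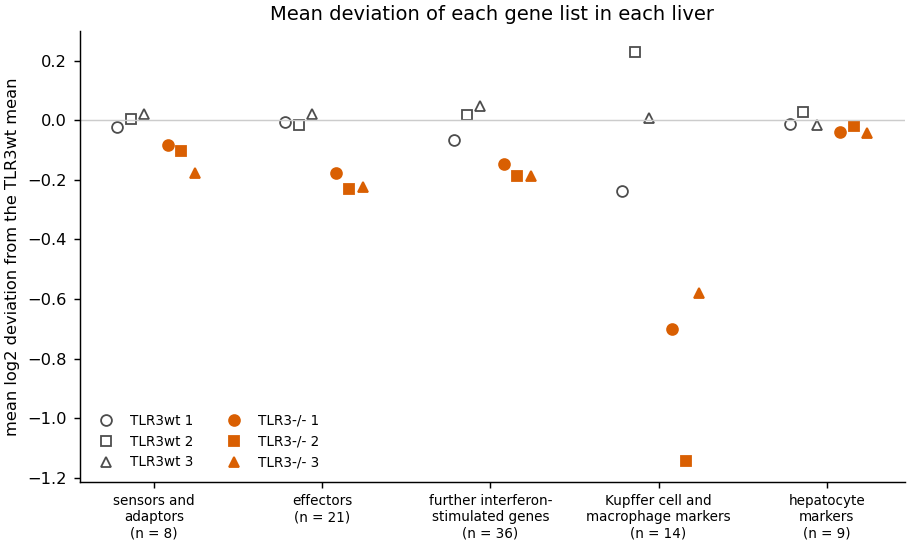
Mean deviation from the TLR3wt mean (y axis, log2) in each liver for sensors and adaptors, effectors, further interferon-stimulated genes, Kupffer cell and macrophage markers and hepatocyte markers. Open grey symbols are TLR3wt and filled orange symbols TLR3-/- livers, with 1 symbol shape per replicate number. The effector means are -0.18 to -0.23 in TLR3-/- livers, the macrophage means -0.58 to -1.14 and the hepatocyte means -0.02 to -0.04.

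Genes upstream of the effectors were followed in lists drawn up apart from the 41 names, but also with earlier results of these data known. Of 21 interferon ligand genes, 13 were at 5 on all arrays, 5 had only shared probe sets and 3 were measured, Ifnl2 (-0.15), Ifna5 (-0.02) and Ifna2 (0.04), with overlapping groups. Of 17 receptor and JAK-STAT genes 10 had a lower mean (median -0.05), and 0 passed limma's adjusted p of 0.05. The groups separated downwards in 3 and upwards in 3, against 7.04% and 13.0% of all tested probe sets. Ifnar1, a chain of the type I interferon receptor, read 6.99, 6.93 and 6.77 in TLR3wt and 7.07, 7.17 and 7.02 in TLR3-/- livers, a difference of 0.18 (limma adjusted p = 0.354). The kinase gene Jak2 had a difference of 0.20, the phosphatase gene Ptpn1 -0.30 and the shared receptor gene Il10rb -0.29. The ISGF3 genes Stat2 and Irf9 had differences of -0.05 (interval -0.24 to 0.14) and 0.00 (interval -0.28 to 0.28).

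The list of interferon regulatory factors, Irf2bp1 and Irf2bp2 included, had 8 measured genes and a median of -0.19. A lower mean was found in 5, against 41.2% of all tested probe sets, and 0 passed limma's adjusted p. The groups separated downwards in 2 and upwards in 0, against 7.04% and 13.0% of all tested probe sets. Irf8, a factor of myeloid cells, read 5.91, 5.89 and 5.97 against 5.60, 5.63 and 5.66, and the corepressor gene Irf2bp2 had a difference of -0.41 (limma adjusted p = 0.122 and 0.203). Irf7, the factor that amplifies interferon production and is itself induced by interferon, read 7.35, 7.35 and 7.11 against 7.13, 6.68 and 6.86. Its groups overlapped only through TLR3wt replicate 3 (difference -0.38, limma adjusted p = 0.284). Irf5 had a difference of -0.23, and Irf3, which acts directly below the sensors, of 0.09 with overlapping groups. Irf1, at 0.19, had the largest difference upwards in the list, and its groups overlapped.

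Signalling genes below the sensors and nucleic acid enzymes were spread around 0. Of 20 measured signalling genes 10 had a lower and 10 a higher mean (median 0.00), and of 23 enzymes and cofactors 9 had a lower and 14 a higher mean (median 0.02), with 0 passing limma's adjusted p in either list. Rnf125, encoding a ubiquitin ligase that marks RIG-I for degradation, was the gene with the largest difference here. It read 9.99, 10.03 and 10.29 in TLR3wt and 10.80, 10.46 and 10.86 in TLR3-/- livers, 1.52-fold higher with no overlap (limma adjusted p = 0.162). Azi2, an adaptor gene of the kinase TBK1, had a difference of 0.27, Trim56 -0.11 and Fadd 0.31. Ticam1, which encodes the TLR3 adaptor TRIF, had a difference of -0.07 (interval -0.21 to 0.06).

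Among the enzymes, Samhd1, a nucleotide hydrolase that limits DNA synthesis by viruses, read 6.93, 7.04 and 6.91 in TLR3wt and 6.62, 6.71 and 6.70 in TLR3-/- livers (limma adjusted p = 0.160). Dicer1 (0.18), Trex1 (0.15) and Prkra (0.27) had higher means, and the groups separated for Dicer1 and Trex1 and overlapped for Prkra. No adjusted p of these 3 genes was below 0.235 (limma).

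A separate list of interferon-stimulated genes, also chosen with earlier results of these data known, leaned the same way as the effectors. Of 36 measured genes 27 had a lower mean, and the median was -0.15, with 0 passing limma's adjusted p. The groups separated downwards in 12 and upwards in 2, against 7.04% and 13.0% of all tested probe sets. Slfn2, a Schlafen gene of lymphoid and myeloid cells, read 5.51, 5.69 and 5.61 against 5.13, 5 and 5 (limma adjusted p = 0.0765). Ly6e, a surface protein gene that restricts coronavirus entry, read 10.18, 10.29 and 10.57 against 9.78, 9.34 and 9.57, 1.72-fold lower (limma adjusted p = 0.129). Gbp3, a guanylate-binding protein gene, and the immunoproteasome gene Psmb8 had differences of -0.76 and -0.46. These 4 genes were named for the smallest p of the list, and in each the TLR3-/- livers lay below every TLR3wt liver.

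**Figure D4:**
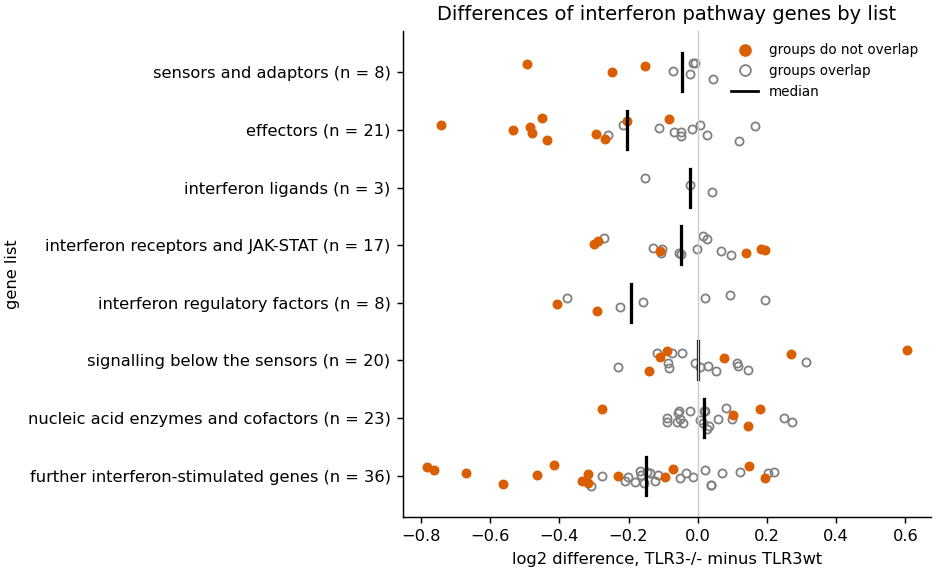
Log2 difference, TLR3-/- minus TLR3wt (x axis), of each measured gene, by list (rows, with the number of genes). Filled orange points are genes whose groups do not overlap, open grey points those that overlap, and the black bar is the median. The medians are -0.20 for the effectors and -0.15 for the further interferon-stimulated genes and -0.19 for the regulatory factors, and lie between -0.05 and 0.02 for the sensors, ligands, receptors, signalling genes and enzymes.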

How the data were processed

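Total liver RNA of 3 TLR3-/- and 3 TLR3wt mice was measured on 1 array each, grouped by sample title. The values are log2 signals as deposited, from RMA (background correction, quantile normalisation, probe summary) run by the authors in Expression Console, according to the processing notes of the submitters, and were not rescaled. The lowest value is 5, and 57.2% to 57.6% of an array's values stand there, so differences near it are understated. What set this floor is unknown here.

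Names were taken from the platform's annotation and brought to GRCm38.p6 by gene identifier (99.6% matched). Among 35557 probe sets, 21789 carried 1 symbol, 1621 several and 12147 none. Each gene was represented by its 1-symbol probe set with the highest mean. Current names of Mb21d1 and Tmem173 are Cgas and Sting1.

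The main comparison used limma 3.58.1 (R 4.3.3; lmFit and eBayes, two-sided) with Benjamini-Hochberg adjustment over 16639 probe sets and a threshold of 0.05. It omitted the 18918 that never rose above 5. The procedure was tested on simulated data first.

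Members and lists were chosen with earlier results of these data known. Array values are printed for sensors, for effectors with separate groups or an unadjusted p under 0.05, and otherwise for the member of a role with the smallest p, and other members were added. Up to 4 genes with the smallest p are named per pathway list, besides receptor, ISGF3 and TRIF genes. Markers are the first 3 measured of a list, and Cd163, Pecam1, Stab1 and Kdr were named after their values were seen. So were other ligand, Irf1, Irf3, Irf5 and array values of listed genes. Alternatives covered the filter, scaling, variance model, array weights, a replicate block and leaving out each mouse. Same-numbered mice did not deviate together (correlations 0.048, -0.012 and -0.063), where pairs of other numbers ran from -0.12 to 0.14. With 3 mice per group this check cannot settle whether the numbers pair the mice. The main fit did not use them as pairs.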

Additional observations from a re-analysis of the deposited data

How the results depend on the processing

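No member passed limma's adjusted p of 0.05 in any of the 17 alternatives (smallest 0.0692, with a gene's probe sets averaged, and 0.441 with all 35557 probe sets in the fit). Over all tested probe sets 31 passed in the reported fit and 0 to 35 in the alternatives. At an unadjusted p under 0.05, 7 to 13 members were lower and 0 higher, except Dtx3l, higher without TLR3wt replicate 1. Herc6, Usp18, Trim30a, Cmpk2, Bst2 and Parp14 were under that p in all 18 fits, Ifit3 in 16, Rsad2 in 14, Oasl2 in 12 and Zbp1 in 10. With the replicate block 0 members passed (smallest limma adjusted p 0.256), 11 were lower at an unadjusted p under 0.05, and 4 probe sets passed in all.

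The median over all members was -0.15 with genes above the floor on all arrays, -0.16 with arrays centred on their medians, -0.15 with array weights and -0.17 to -0.11 without 1 mouse. For effectors it was -0.27 above the floor, -0.25 with centring and -0.26 to -0.16 without 1 mouse, and for sensors -0.095 with centring and -0.085 to -0.040 without 1 mouse. Centring gave -0.10 for receptors and JAK-STAT, -0.24 for regulatory factors, -0.049 for signalling, -0.030 for enzymes and -0.20 for further interferon-stimulated genes, and repeated quantile normalisation gave -0.023 for enzymes. Without 1 mouse the ranges were -0.057 to -0.0016 for receptors and JAK-STAT and -0.026 to 0.029 for signalling.

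Of the 29 member differences 19 kept their sign and 10 changed it at least once, none going past 0 by more than 0.081. With centring Dhx58 was at -0.0050, Oasl1 at -0.021 and Parp9 at -0.042. After quantile normalisation Oasl1 was at -0.0097 and Parp9 at -0.038, and with array weights Ddx58 was at 0.014. Without 1 mouse the ranges were -0.075 to 0.037 for Ddx58, -0.013 to 0.15 for Dhx58, -0.063 to 0.039 for Mavs, -0.052 to 0.053 for Eif2ak2, -0.12 to 0.012 for Oas2, -0.033 to 0.078 for Oasl1, -0.062 to 0.24 for Ddx60, -0.081 to 0.082 for Parp9, -0.078 to 0.080 for Rtp4 and -0.12 to 0.062 for Ifi35. The cause of these shifts was not tested. Differences of members were fully measured where all arrays were above the floor (21 of 29), and those of the others can be understated.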

Other observations

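Several probe sets list a member together with another gene, so their values belong to no single gene. A pair annotated to both Tgtp1 and Tgtp2, genes of interferon-inducible GTPases, showed larger differences than any measured member. Probe set 10385533 read 6.33, 7.42 and 6.47 in TLR3wt and 5.18, 5.86 and 5.39 in TLR3-/- livers, 2.40-fold lower (limma adjusted p = 0.187), and 10385518 was 2.43-fold lower. The probe set shared by Ifi204 and Ifi211 read 5.84, 5.97 and 5.91 against 5.67, 5.42 and 5.55. The one shared by Oas1a and Oas1g read 5.19, 5.35 and 5.41 in TLR3wt livers and 5 in all TLR3-/- livers. The one shared by Ifi47 and Olfr56 read 5.50, 5.63 and 5.43 against 5.13, 5.25 and 5.41. In each of these the TLR3-/- livers lay below all TLR3wt livers, as in 7.04% of all tested probe sets. For Ifi47 and Olfr56 the lowest TLR3wt liver, at 5.43, was only just above the highest TLR3-/- liver, at 5.41. The Oas1a and Oas1g probe set, at the floor in every TLR3-/- liver, could not come out higher. The probe set that lists Isg15 and Gm9706 was above 5 only in TLR3wt replicate 3, at 5.16.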
